A study of Homo sapiens with 12 samples.

Results

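The experiment labelled as TAL1 knockdown in Jurkat cells comprised 4 of the 12 libraries of the series, 2 of a group labelled TAL1-KD and 2 of a group labelled TAL1-control. Both groups were Jurkat, a human leukaemia line of T-lymphoblasts, carrying an shRNA against TAL1 under a doxycycline-inducible promoter. TAL1-KD cells had received doxycycline at 5 µg/ml for 72 h, and TAL1-control cells of the same line had received none. Per the labels, both groups were kept in serum free of tetracycline and under blasticidin and an aminoglycoside for selection. Doxycycline and the induced shRNA differ together between the groups, so effects of the drug and of the shRNA cannot be told apart. The labels do not say whether the line was a clone or whether the 2 replicates of a group were separate cultures, so p-values here reflect the spread of these libraries alone, technical or not. A second pair of groups, UTX-KD and UTX-control, came from Jurkat cells with an inducible shRNA against UTX, the product of the histone demethylase gene KDM6A, with the same doxycycline dose and time in UTX-KD.

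TAL1 is a basic helix-loop-helix transcription factor of blood stem cells and of the red cell and platelet lineages, and it is normally silent in maturing T cells. In Jurkat a small insertion upstream of the gene creates an enhancer that switches it on. TAL1 binds DNA paired with an E protein such as TCF3 or TCF12, in a complex with LDB1, an LMO protein, GATA3 and RUNX1. E proteins drive T-cell maturation genes, and TAL1 can hold them back by pairing with them.

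The targeted mRNA was examined first. TAL1 (ENSG00000162367) had 232 and 254 CPM in TAL1-KD, against 254 and 257 CPM in TAL1-control (CPM, TMM-scaled counts over the library total). Both TAL1-KD libraries lay below both TAL1-control libraries, replicate 2 by less than the gap between the TAL1-control libraries. The log2 fold change was -0.07 (SE 0.09), with a 95% interval from -0.27 to 0.13, and the adjusted p was 0.490 in edgeR's quasi-likelihood test. No fall of TAL1 mRNA was shown. With TAL1-KD replicate 2 left out the change was -0.14 and passed the test, and with TAL1-KD replicate 1 left out it was 0.00. Protein was not measured, so the directions below are those of the libraries labelled TAL1-KD relative to TAL1-control.

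The 4 libraries held 60085969 and 66998614 counted reads in TAL1-KD, and 70996736 and 66089357 in TAL1-control, and 16829 of 29601 genes with a read were tested. In the text a gene rose or fell where edgeR's adjusted p was under 0.05, values are CPM of single libraries in the order replicate 1 and replicate 2, and fold changes are log2 of TAL1-KD over TAL1-control (n = 2 per group), also where they stand in brackets or after "rose by". By this rule 26.3% of tested genes were higher and 27.9% lower in TAL1-KD (54.2% in either direction), with a median log2 fold change of -0.02 over all genes tested, and counts within gene lists are to be read against these shares. The groups did not overlap in 81.0% of tested genes, with TAL1-KD above in 38.8% and below in 42.2%. The TAL1-KD replicates lay further apart than the TAL1-control replicates, with an SD of their log2 differences of 0.281 against 0.122 over genes with a mean of at least 1 CPM. Leaving out TAL1-control replicate 1 cut the calls to 2431 higher and 3094 lower, against 4424 and 4696 with all libraries, and leaving out TAL1-control replicate 2 to 2657 higher and 3236 lower. With the trend in transcript length and GC content removed the calls were 5626 higher and 4011 lower, and with upper quartile scaling 3719 higher and 5364 lower.

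The libraries carried most of a set of T-lineage markers used here for the Jurkat line. TRBC1, a T-cell receptor chain gene of the set, had 1 read or fewer in each library. Of 18 such markers, 16 were tested, and their summed level was 6259 and 6931 CPM in TAL1-KD, against 5509.9 and 5661 CPM in TAL1-control. Of these 5 rose and 2 fell. Higher ones numbered 9 without TAL1-KD replicate 1, 8 without TAL1-KD replicate 2, 3 without TAL1-control replicate 2 and 8 with the trend in transcript length and GC content removed, and lower ones 4 without TAL1-KD replicate 2, 0 without TAL1-control replicate 1, 0 without TAL1-control replicate 2 and 1 with the trend in transcript length and GC content removed. Of the markers of other cells, 5 of 11 B-cell, 6 of 12 myeloid, 3 of 15 erythroid and megakaryocyte and 3 of 11 epithelial and stromal markers passed the filter on low counts. The summed B-cell markers reached 96.6 and 101 CPM in TAL1-KD, against 107 and 109 CPM in TAL1-control, and the defining genes MS4A1 and PAX5 had 10 reads or fewer in each library. Of the 5 tested B-cell markers 2 rose and 0 fell, beside 26.3% and 27.9% over all genes tested. With a minimum of 1 CPM in 2 libraries 0 rose and 1 fell. Lower ones numbered 2 with upper quartile scaling and 2 with the trend in transcript length and GC content removed. Within that list IGHM, an immunoglobulin heavy chain gene, rose, with 0.471 and 0.49 CPM in TAL1-KD, against 0.0795 and 0.117 CPM in TAL1-control. IGHM is a small part of the summed level, which lay lower in both TAL1-KD libraries. The sum of the myeloid markers was 2.22 and 2.71 CPM in TAL1-KD, against 2.45 and 2.40 CPM in TAL1-control, and of the 3 erythroid and megakaryocyte markers tested 0 rose and 1 fell. In bulk RNA, fewer cells of a type and less RNA per cell cannot be told apart.

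Genes of the TAL1 complex were called in both directions. GATA3, the T-cell zinc finger factor of the complex, rose by 1.46 (SE 0.11), with 351 and 433 CPM in TAL1-KD, against 140.3 and 145 CPM in TAL1-control. The E protein gene TCF3 rose by 0.70 and the bridging gene LDB1 by 0.44, while the E protein gene TCF12 (0.02) and MYB (-0.03), which binds the Jurkat enhancer, did not pass the test. LYL1, the closest relative of TAL1, fell (-1.40, SE 0.24), with 0.336 and 0.392 CPM in TAL1-KD, against 0.954 and 0.976 CPM in TAL1-control, and ERG, an ETS factor that co-occupies TAL1 sites in blood progenitors, fell (-1.50, SE 0.34). LMO1 was the LMO gene with reads to test and fell (-0.39), with 5.63 and 5.63 CPM in TAL1-KD, against 7.61 and 7.18 CPM in TAL1-control. LMO2 had 5 and 1 reads in TAL1-KD, against 10 and 10 in TAL1-control, below the filter. Over the whole list of the complex and its relatives, 5 of 25 tested genes rose and 9 fell (20% and 36%). The shares over all genes tested were 26.3% and 27.9%. Other settings gave 8 without TAL1-KD replicate 1, 3 without TAL1-control replicate 1, 2 without TAL1-control replicate 2 and 8 with the trend in transcript length and GC content removed for higher genes, and for lower genes 4 without TAL1-control replicate 1, 4 without TAL1-control replicate 2 and 5 with the trend in transcript length and GC content removed. No call was made for LDB1 without TAL1-control replicate 2 and for LMO1 in DESeq2's Wald test, without TAL1-control replicate 1 and without TAL1-control replicate 2.

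Genes described in T-cell leukaemia as activated by TAL1 were called in both directions. Of 19 tested, 5 rose and 7 fell, beside shares over all genes of 26.3% higher and 27.9% lower, with a median of -0.03. ALDH1A2, a retinoic acid synthesis enzyme gene, fell (-0.57), with 427 and 379.6 CPM in TAL1-KD, against 571 and 624 CPM in TAL1-control, and CDK6, the G1 kinase gene with one of the largest losses in CPM, fell (-0.59), with 1546 and 1190.3 CPM in TAL1-KD, against 2065 and 2051 CPM in TAL1-control. In each of these genes the groups did not overlap. ARID5B, an enhancer-bound TAL1 partner gene in T-cell leukaemia, rose by 0.29. Of this list the higher genes numbered 1 without TAL1-control replicate 1 and 3 without TAL1-control replicate 2, and the lower genes 3 without TAL1-control replicate 1 and 2 without TAL1-control replicate 2. The test was not passed for ALDH1A2 without TAL1-control replicate 2, for ARID5B without TAL1-control replicate 1 and without TAL1-control replicate 2 and for CDK6 without TAL1-control replicate 1, without TAL1-control replicate 2 and with the trend in transcript length and GC content removed.

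Genes of the NF-kB pathway rose, with 4 of 5 subunit genes higher. NF-kB factors are dimers of 5 subunits kept in the cytoplasm by inhibitor proteins, and active NF-kB raises the genes of its own inhibitors and of several subunits. RELB, the subunit of the non-canonical branch, had 88.1 and 96.4 CPM in TAL1-KD, against 8.96 and 8.38 CPM in TAL1-control. NFKB2, which encodes the partner of RELB, had 153 and 186 CPM in TAL1-KD, against 51.4 and 56.0 CPM in TAL1-control. The groups did not overlap in either gene, and the log2 fold changes were 3.41 (SE 0.10) for RELB (edgeR adjusted p = 1.27e-05) and 1.66 (SE 0.11) for NFKB2 (edgeR adjusted p = 0.000166). RELA and REL, of the canonical branch, rose by 0.60 and 0.46, and NFKB1 did not pass the test at 0.08 (SE 0.07), with 80.0 and 82.3 CPM in TAL1-KD, against 77.1 and 76.0 CPM in TAL1-control. The call was lost for REL without TAL1-control replicate 2.

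Inhibitors and brakes of the pathway rose as well, 9 of 12 tested with 0 lower and a median of 1.04. Lower ones numbered 1 with a minimum of 1 CPM in 2 libraries, 1 with upper quartile scaling, 1 without TAL1-KD replicate 1 and 1 without TAL1-KD replicate 2. NFKBIA, the inhibitor that binds RELA dimers, had 134 and 159 CPM in TAL1-KD, against 33.7 and 35.1 CPM in TAL1-control. TNFAIP3, a ubiquitin-editing enzyme that ends NF-kB signalling, had 519.9 and 663 CPM in TAL1-KD, against 138 and 142 CPM in TAL1-control. BCL3, a nuclear member of the inhibitor family, had 5.03 and 4.80 CPM in TAL1-KD, against 0.914 and 1.05 CPM in TAL1-control. The log2 fold changes were 2.09 (SE 0.10), 2.08 (SE 0.13) and 2.32 (SE 0.17), and the RNase gene ZC3H12A followed with 1.96 (SE 0.11). The kinases and adaptors that activate NF-kB were called in both directions, with a median of -0.04. Beside 26.3% higher and 27.9% lower over all genes tested, 3 of 19 (15.8%) were higher and 6 (31.6%) lower. The count of higher genes was 5 with size factors of DESeq2, 5 without TAL1-KD replicate 1, 6 without TAL1-KD replicate 2, 1 without TAL1-control replicate 1, 1 without TAL1-control replicate 2 and 6 with the trend in transcript length and GC content removed, and that of lower genes 10 without TAL1-KD replicate 1. MAP3K14, the kinase of the non-canonical branch, stood at 0.23 and did not pass the test, IRAK1 rose by 0.99, and the adaptor gene TRAF1 and the kinase gene RIPK1 fell (-1.11 and -1.09).

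Among cytokine, chemokine and adhesion targets, 10 of 17 tested genes rose and 3 fell. ICAM1, an adhesion molecule, had 50.4 and 55.1 CPM in TAL1-KD, against 13.6 and 14.3 CPM in TAL1-control. LTB, the membrane-bound lymphotoxin, had 4.54 and 4.62 CPM in TAL1-KD, against 1.25 and 1.60 CPM in TAL1-control. BIRC3, an inhibitor of cell death, had 164 and 146 CPM in TAL1-KD, against 53.9 and 55.3 CPM in TAL1-control. These rose by 1.92 (SE 0.09), 1.69 (SE 0.18) and 1.51 (SE 0.09), and the chemokine gene CXCL10 by 2.74 (SE 0.53). CCR7, the lymph node homing receptor, fell, with 0 and 2 reads in TAL1-KD, against 14 and 26 reads in TAL1-control (edgeR adjusted p = 0.00657), too few reads in TAL1-KD for a fold change.

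Promoters of some of these genes carry a letter pattern of NF-kB binding, and the stretches that hold it are printed here beside the genes' values. The search covered the 250 bases before the gene start, taken from RefSeq (GRCh38.p14), for GGG, any 2 bases and TTTCC on both strands, and 1.73% of 27305 promoters in the table held it. It was found in 2 of 4 promoters of subunit genes, 3 of 11 of inhibitor genes and 3 of 19 of target genes that had a promoter in the table. The subunit genes with a match were NFKB1 and REL. RELB, NFKB2, BCL3, ZC3H12A and ICAM1, which rose, had no match or no promoter in the table. The sequences below run 5′ to 3′ on the strand of the gene, with the matches in capitals, and cover NFKBIA at chr14:35404779-35404859 (reverse strand), TNFAIP3 at chr6:137867149-137867229 (forward), BIRC3 at chr11:102317254-102317334 (forward), LTB at chr6:31582465-31582545 (reverse) and NFKB1 at chr4:102501259-102501339 (forward).
NFKBIA: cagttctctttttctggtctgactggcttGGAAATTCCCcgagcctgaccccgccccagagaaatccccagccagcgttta
TNFAIP3: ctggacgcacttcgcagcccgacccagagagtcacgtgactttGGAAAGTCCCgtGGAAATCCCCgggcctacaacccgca
BIRC3: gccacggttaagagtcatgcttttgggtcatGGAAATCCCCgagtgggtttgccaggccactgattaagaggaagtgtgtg
LTB: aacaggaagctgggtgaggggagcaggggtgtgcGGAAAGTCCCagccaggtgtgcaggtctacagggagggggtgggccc
NFKB1: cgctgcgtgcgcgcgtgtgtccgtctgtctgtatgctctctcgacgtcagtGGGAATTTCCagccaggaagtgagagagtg
TNFAIP3 has 2 matches close together, and the other 4 have 1 each. NFKB1 carries the pattern and its mRNA did not pass the test (0.08), whereas the other 4 genes rose. A match is a description of letters and no evidence of binding in these cells.

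**Figure D1:**
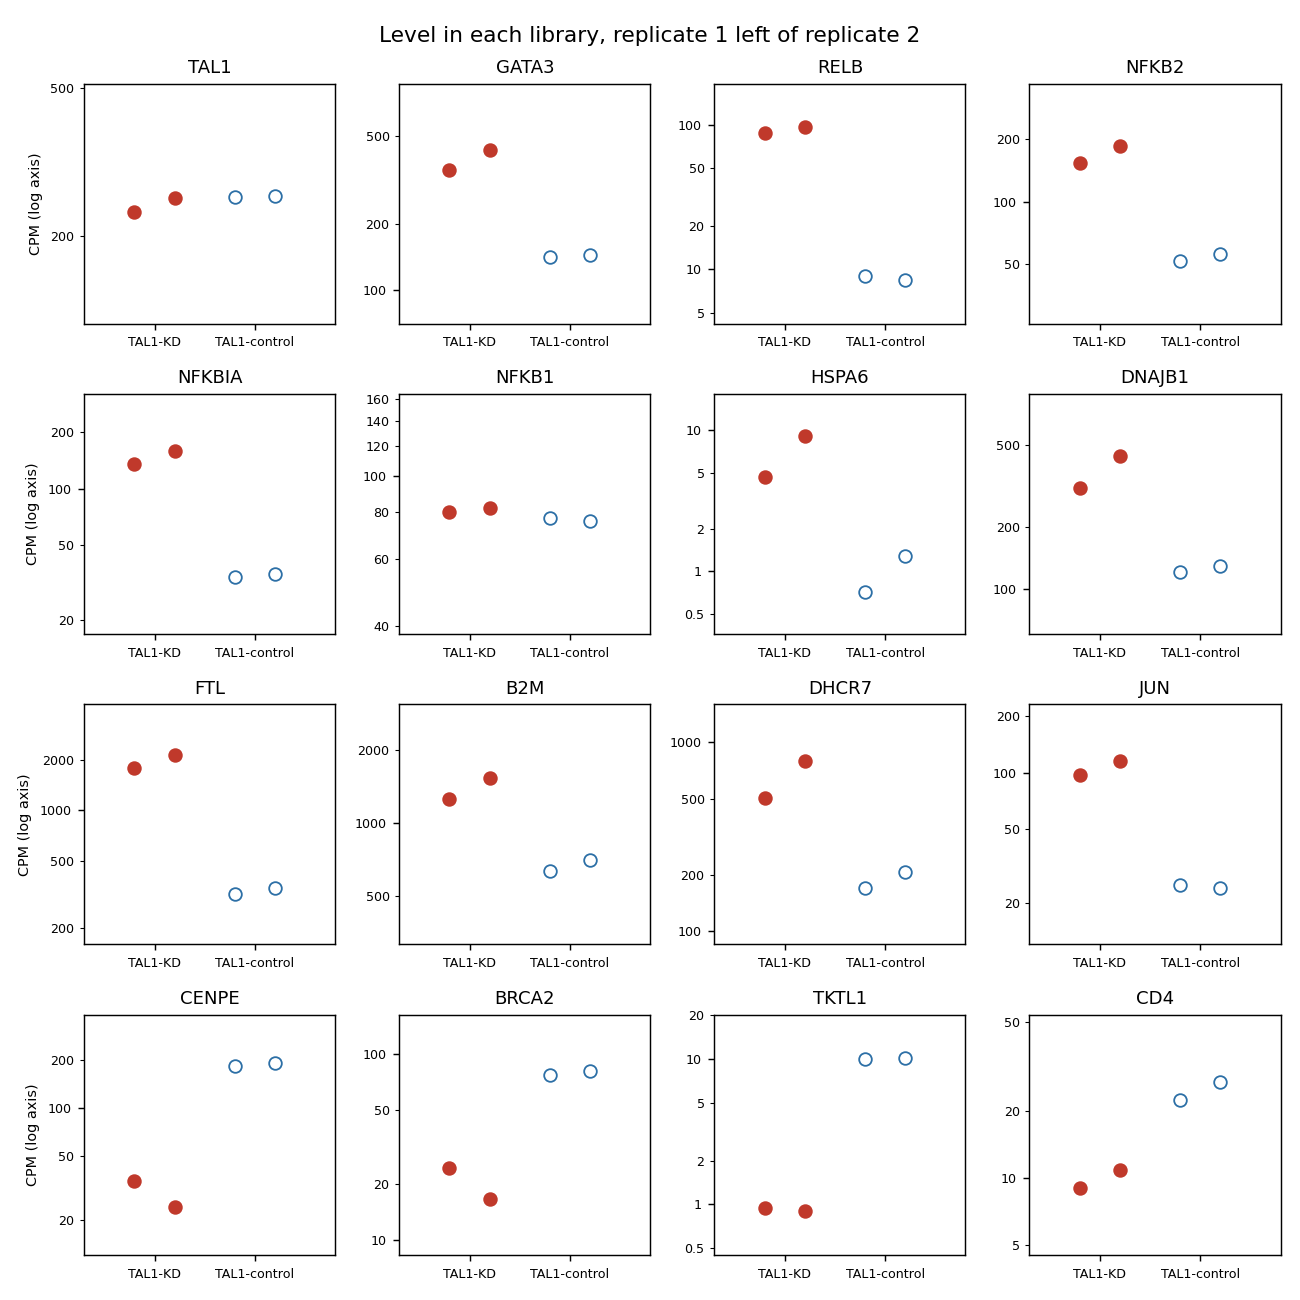
Level of 16 genes in each library of the TAL1-labelled experiment, in CPM on a log axis, with TAL1-KD libraries (filled) left of TAL1-control libraries (open) and replicate 1 left of replicate 2 within a group. TAL1 lies close together in all 4 libraries, RELB, NFKB2, NFKBIA and FTL lie higher in both TAL1-KD libraries, and CENPE, BRCA2 and TKTL1 lie lower in both.

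Immediate early genes of the AP-1 family rose with NF-kB. AP-1 is a dimer of JUN and FOS family proteins made within minutes of a stimulus, and 10 of 12 tested family genes rose with none lower. JUN had 97.3 and 116 CPM in TAL1-KD, against 25.0 and 24.0 CPM in TAL1-control, an increase of 2.12 (SE 0.10). FOS rose by 1.36, JUNB by 1.22 and the small MAF gene MAFF by 1.14. Of other early genes 15 of 20 rose and 4 fell, and the lower ones numbered 1 without TAL1-control replicate 1. EGR2, a zinc finger brake on T-cell activation, rose by 1.50 (SE 0.36). EGR1, an early gene of growth signals, had 1.43 and 0.849 CPM in TAL1-KD, against 3.18 and 3.23 CPM in TAL1-control, a log2 fold change of -1.49 (SE 0.24). No call was made for EGR2 without TAL1-control replicate 1. Dual-specificity phosphatases, which switch off MAP kinases, rose in 9 of 13 cases. DUSP8, which acts on the stress kinases, had 12.7 and 17.7 CPM in TAL1-KD, against 2.11 and 2.46 CPM in TAL1-control, an increase of 2.74 (SE 0.19). DUSP5 and DUSP1 rose by 1.77 and 1.63, and SPRY4, an inhibitor of the ERK branch listed with them, fell (-1.51).

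Heat shock chaperones rose. These proteins hold or refold damaged proteins, and 17 of 19 tested genes were higher and none lower, with a median of 0.92. HSPA6, an HSP70 gene that is close to silent without stress, had 4.66 and 9.06 CPM in TAL1-KD, against 0.716 and 1.28 CPM in TAL1-control. HSPA1B, another stress-inducible HSP70 gene, had 23.7 and 39.6 CPM in TAL1-KD, against 5.91 and 6.16 CPM in TAL1-control. DNAJB1, the HSP40 partner of HSP70, had 310.5 and 443 CPM in TAL1-KD, against 120.5 and 129 CPM in TAL1-control. In each of the 3 both TAL1-KD libraries were above both TAL1-control libraries, replicate 2 being the higher, and the log2 fold changes were 2.79 (SE 0.38), 2.39 (SE 0.23) and 1.60 (SE 0.16). The constitutive gene HSPA8 rose by 1.40 and HSP90AA1, the inducible HSP90, by 0.97. HSPA1A (2.15) and HSPA1B are near-identical copies, so how their reads are split is uncertain.

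The heat shock element, the site of the factor HSF1, is made of inverted GAA units, and GAANNTTC was searched in the same 250-base windows. It was present in 7 of 18 promoters of the list, against 5.85% of all promoters, and 3 stretches are printed as examples from inducible and constitutive genes. They lie at chr6:31815403-31815483 (HSPA1A, forward strand), chr1:161524340-161524490 (HSPA6, forward) and chr11:123062176-123062376 (HSPA8, reverse), with the matches in capitals.
HSPA1A: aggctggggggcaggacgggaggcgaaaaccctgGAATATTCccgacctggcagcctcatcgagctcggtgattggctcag
HSPA6: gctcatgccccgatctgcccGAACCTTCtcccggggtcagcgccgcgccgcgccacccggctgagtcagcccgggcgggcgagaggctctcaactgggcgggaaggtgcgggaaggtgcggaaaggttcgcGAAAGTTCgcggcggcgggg
HSPA8: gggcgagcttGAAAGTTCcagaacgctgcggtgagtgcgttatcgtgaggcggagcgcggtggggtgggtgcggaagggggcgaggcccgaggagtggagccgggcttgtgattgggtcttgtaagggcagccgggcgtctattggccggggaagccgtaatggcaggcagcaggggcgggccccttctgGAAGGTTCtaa
HSPA6 and HSPA8 have 2 matches each and HSPA1A has 1, which are all that their 250-base windows hold. The letters differ outside the fixed GAA and TTC, and no statement on HSF1 follows from them.

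Genes of protein breakdown rose beside the chaperones. Of proteasome subunits, 25 of 36 rose and 2 fell, with a median of 0.42. PSMB5, the chymotrypsin-like catalytic subunit, had 102 and 123 CPM in TAL1-KD, against 59.9 and 66.1 CPM in TAL1-control (log2 fold change 0.84, SE 0.11), and PSMB2 rose by 1.01. That count of higher subunits was 13 without TAL1-control replicate 1, and that of lower ones 1 by the Wald test of DESeq2, 0 without TAL1-control replicate 1 and 0 without TAL1-control replicate 2. Of lysosome and autophagy genes, 21 of 28 rose and 1 fell, with a median of 0.55. Lower ones numbered 2 with a minimum of 1 CPM in 2 libraries, 2 with upper quartile scaling, 4 without TAL1-KD replicate 1, 2 without TAL1-KD replicate 2 and 2 with the trend in transcript length and GC content removed. GABARAPL1, which joins autophagosome membranes, had 141 and 184 CPM in TAL1-KD, against 46.9 and 48.9 CPM in TAL1-control. CTSD, the main aspartic protease of lysosomes, had 162 and 184 CPM in TAL1-KD, against 76.5 and 77.7 CPM in TAL1-control. These rose by 1.76 (SE 0.13) and 1.17 (SE 0.09), as did TFE3, a master regulator of the group, by 1.69 (SE 0.13), and the autophagy receptor SQSTM1 by 0.86. The lysosomal calcium channel gene MCOLN1 fell (-1.06, SE 0.11). In the endoplasmic reticulum 17 of 23 chaperone and stress genes rose, among them HSPA5 (0.98), DNAJB9 (0.93) and HERPUD1 (0.91). That count was 9 without TAL1-control replicate 1 and 9 without TAL1-control replicate 2.

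Ferritin and redox genes rose. FTL, the ferritin light chain, had 1785 and 2124 CPM in TAL1-KD, against 321 and 348 CPM in TAL1-control. FTH1, the ferritin heavy chain, had 2579.7 and 2791 CPM in TAL1-KD, against 824 and 860.1 CPM in TAL1-control. Both are among the 6 genes with the largest gain in CPM, and the groups did not overlap in either. The log2 fold changes were 2.55 (SE 0.13) for FTL and 1.67 (SE 0.12) for FTH1. The transferrin receptor gene TFRC, which imports iron and is usually regulated against ferritin, rose too, by 1.32 (SE 0.09). Of 16 iron genes none fell in the main fit, and 1 fell with no filter on low counts, with upper quartile scaling and in DESeq2's Wald test. In the main fit 6 rose. The count was 10 without TAL1-KD replicate 1, 10 without TAL1-KD replicate 2 and 11 with the trend in transcript length and GC content removed. NRF2 targets and thiol enzymes rose in 15 of 21 cases with none lower and a median of 0.69. OSGIN1 rose by 2.26 (SE 0.20), the peroxidase gene PRDX1 by 1.66 (SE 0.10), the quinone reductase gene NQO1 by 1.36 (SE 0.17) and thioredoxin TXN by 1.30 (SE 0.11). Of 8 metallothionein and zinc genes tested 6 rose, led by MT1X at 1.07 (SE 0.16). FTL and its pseudogene FTLP3 (2.51) share sequence, so the source of the pseudogene's reads is uncertain.

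Antigen presentation genes rose. These genes display peptides to T cells on class I and class II molecules, and 11 of 16 tested members of the list, which holds genes of both classes, rose, with 2 lower and a median of 0.94. The lower ones numbered 1 by the Wald test of DESeq2, 1 without TAL1-control replicate 1 and 1 without TAL1-control replicate 2. The class II genes HLA-DRA, CD74 and CIITA had 11 reads or fewer in each library, below the filter, and were not tested. These counts do not separate the classes, so they show no rise of class II genes as such. Genes named below act in class I presentation or peptide loading. HLA-B had 846 and 1183 CPM in TAL1-KD, against 336 and 354 CPM in TAL1-control. B2M, the light chain of class I molecules, had 1254 and 1538 CPM in TAL1-KD, against 632 and 701 CPM in TAL1-control. The increases were 1.56 (SE 0.16) and 1.07 (SE 0.13), although the HLA genes resemble each other and vary between cell lines, so the split of reads among them is uncertain. TAPBP, which loads peptides, rose by 1.11, and NLRC5, the transactivator of class I genes, fell (-0.63, SE 0.11). The promoter of TAPBP holds the NF-kB pattern at chr6:33314098-33314178 on the reverse strand, shown as an example of the pattern in this list, with B2M and TAP1 also holding it.
TAPBP: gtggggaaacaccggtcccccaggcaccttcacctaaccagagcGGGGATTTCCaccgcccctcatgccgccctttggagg
Of interferon-stimulated genes, 17 of 30 rose and 5 fell. IFIT3 rose by 2.25 (SE 0.13) and ISG15 by 1.19 (SE 0.12), while MX2 and RSAD2 fell (-1.24 and -1.01). Higher interferon-stimulated genes numbered 11 without TAL1-control replicate 1, and lower ones 3 with the trend in transcript length and GC content removed.

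Cholesterol synthesis genes rose. Of 23 genes of synthesis and uptake tested, 21 rose and 1 fell, with a median of 0.88. DHCR7, which makes the last step to cholesterol, had 506 and 795 CPM in TAL1-KD, against 171 and 205 CPM in TAL1-control. SQLE, the squalene epoxidase gene, had 295 and 417 CPM in TAL1-KD, against 130.5 and 156 CPM in TAL1-control. In both genes the TAL1-KD libraries lay above the TAL1-control libraries, with replicate 2 above replicate 1 in TAL1-KD, and the increases were 1.79 (SE 0.21) and 1.31 (SE 0.17). The phosphomevalonate kinase gene PMVK fell (-0.58). Fatty acid synthesis followed in part, with 5 of 12 higher, including FASN (0.90) and SCD (0.90). That count was 8 without TAL1-KD replicate 1. The exporter gene ABCA1 and the liver X receptor gene NR1H3 fell (-1.10 and -1.61).

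**Figure D2:**
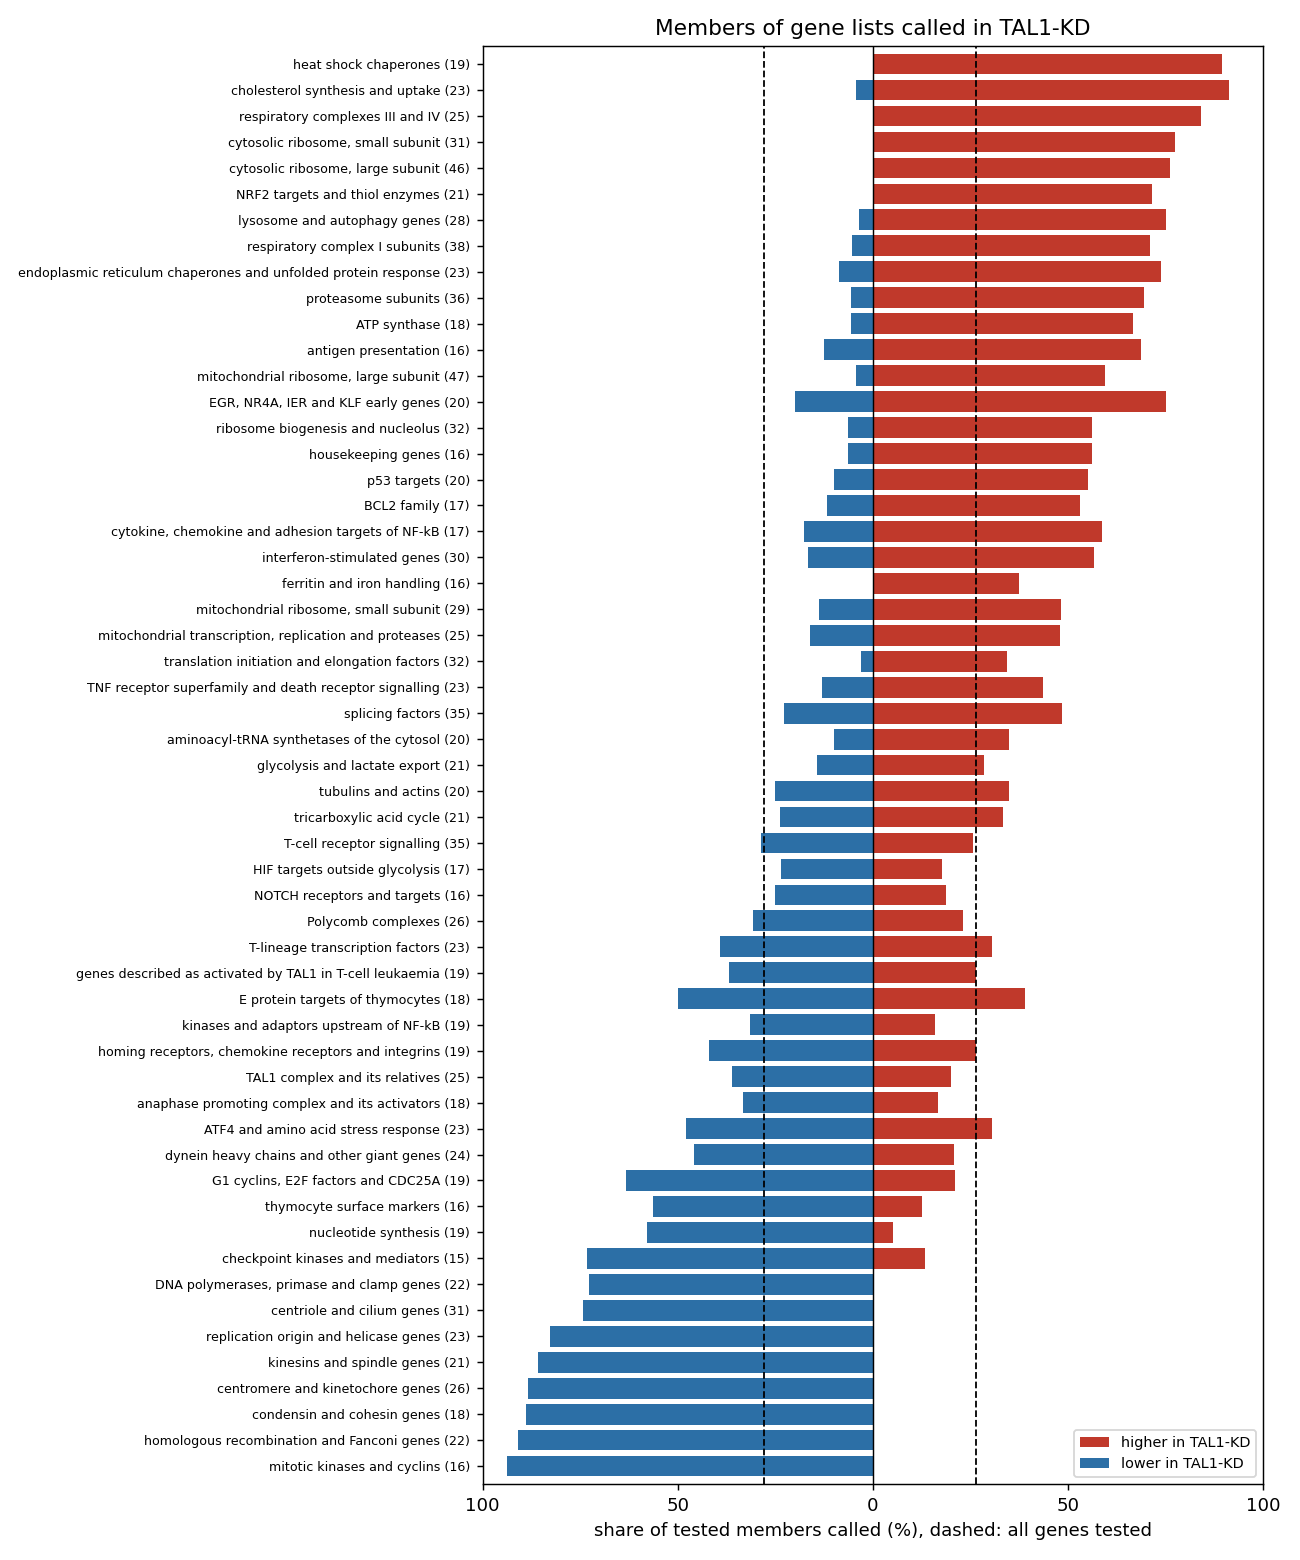
Share of tested members called higher (right, from 0) and lower (left, from 0) in TAL1-KD for the 55 gene lists with at least 15 tested genes, in percent, with the number tested after each name and dashed lines at the shares over all genes tested, 26.3% and 27.9%. Heat shock, cholesterol, NRF2 and respiratory complex lists lie far to the right, and the mitotic, recombination and centriole lists have no or few bars to the right.

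Cell division genes fell in most lists from DNA replication to chromosome separation. At the G1 to S transition 12 of 19 genes fell and 4 rose, with CCNE1, which drives entry into S phase, at 8.73 and 11.0 CPM in TAL1-KD, against 23.1 and 22.2 CPM in TAL1-control, a log2 fold change of -1.20 (SE 0.13). The higher genes numbered 2 with upper quartile scaling, 0 without TAL1-control replicate 1 and 0 without TAL1-control replicate 2. Replication origin and helicase genes fell in 19 of 23 cases, with a median of -0.48, MCM2 at -0.34 and CDC45 at -1.12. That count was 12 without TAL1-control replicate 1 and 9 without TAL1-control replicate 2. The test was not passed for MCM2 without TAL1-control replicate 1 and without TAL1-control replicate 2. Polymerase and primase genes fell in 16 of 22 cases, most in POLA1, the catalytic subunit that starts new strands, with 36.6 and 30.1 CPM in TAL1-KD, against 113 and 107 CPM in TAL1-control, a log2 fold change of -1.72 (SE 0.11). PCNA, the sliding clamp, did not pass the test (-0.13). With the trend in transcript length and GC content removed, 9 G1 to S, 13 replication origin and 15 polymerase genes fell. Their medians were then -0.32, -0.32 and -0.43. By the same fit 8 nucleotide synthesis genes fell, with a median of -0.18. Nucleotide synthesis genes fell in 11 of 19 cases, with thymidylate synthase TYMS at -0.75, and that count was 7 without TAL1-control replicate 1 and 6 without TAL1-control replicate 2.

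Homologous recombination and Fanconi genes, which repair breaks and crosslinks at replication forks, fell in 20 of 22 cases with a median of -0.82. BRCA2, a mediator of strand exchange, had 24.3 and 16.6 CPM in TAL1-KD, against 77.6 and 81.8 CPM in TAL1-control. BRCA1 had 62.2 and 36.9 CPM in TAL1-KD, against 167 and 156 CPM in TAL1-control. Both fell, at -1.96 (SE 0.17) and -1.71 (SE 0.21), and XRCC2 and BRIP1 fell (-1.78 and -1.56). Of checkpoint genes 11 of 15 fell and 2 rose, with the kinase gene CHEK1 at -0.55, CDC25C at -0.91 and ATR, which did not pass the test, at -0.17. The higher checkpoint genes numbered 0 without TAL1-control replicate 1 and 0 without TAL1-control replicate 2.

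Of mitotic kinases and cyclins 15 of 16 fell, with a median of -0.72. AURKA, a spindle pole kinase, had 41.6 and 40.1 CPM in TAL1-KD, against 103 and 109 CPM in TAL1-control. CCNB1, the mitotic cyclin, had 50.4 and 51.5 CPM in TAL1-KD, against 116 and 122 CPM in TAL1-control. The log2 fold changes were -1.38 (SE 0.08) and -1.22 (SE 0.08), and PLK1 fell (-0.99). Kinesin and spindle genes fell in 18 of 21 cases with a median of -0.96. With the trend in transcript length and GC content removed 16 of them fell, with a median of -0.63. CENPE, a kinetochore motor with a very long transcript, had 35.4 and 24.4 CPM in TAL1-KD, against 183 and 191 CPM in TAL1-control, a log2 fold change of -2.65 (SE 0.16). HMMR, a spindle assembly protein, fell (-2.43, SE 0.17), as did KIF15 (-2.03) and KIF14 (-1.81).

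Centromere and kinetochore genes fell in 23 of 26 cases with a median of -0.90, led by NUF2 and SPC25 of the microtubule-binding NDC80 complex, at -2.10 and -1.57. Condensin and cohesin genes, which fold and hold chromosomes, fell in 16 of 18 cases, and the condensin gene NCAPG had 75.4 and 53.6 CPM in TAL1-KD, against 276 and 291 CPM in TAL1-control, a log2 fold change of -2.13 (SE 0.15). With the trend in transcript length and GC content removed 10 of these genes fell. The anaphase promoting complex, which marks mitotic proteins for destruction, was called in both directions. Of 18 genes in the list of the complex, its activators and related genes 6 fell and 3 rose (33.3% and 16.7%). The shares over all genes tested were 27.9% lower and 26.3% higher. The activator gene CDC20 did not pass the test (-0.22). The separase gene ESPL1 fell (-0.95), and ANAPC11, the small RING subunit of the complex, rose by 1.00 (SE 0.14). Its higher genes numbered 8 without TAL1-KD replicate 1, 5 without TAL1-KD replicate 2 and 5 with the trend in transcript length and GC content removed, and its lower genes 10 without TAL1-KD replicate 2.

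Centriole and cilium genes fell in 23 of 31 cases with a median of -0.49. The largest falls were in the intraflagellar transport gene IFT88, with 4.91 and 2.86 CPM in TAL1-KD, against 16.8 and 15.9 CPM in TAL1-control, and in CEP112, with 2.64 and 2.40 CPM in TAL1-KD, against 10.5 and 9.63 CPM in TAL1-control. Neither gene's groups overlapped, and the log2 fold changes were -2.08 (SE 0.22) and -1.99 (SE 0.14). With the trend in transcript length and GC content removed, 15 genes of the list fell. TERT, the catalytic subunit of telomerase, had 0.824 and 0.784 CPM in TAL1-KD, against 5.21 and 4.46 CPM in TAL1-control, a log2 fold change of -2.59 (SE 0.19).

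The brakes on cell division moved both ways. CDKN1A, the inhibitor p21, had 37.4 and 49.3 CPM in TAL1-KD, against 10.4 and 11.4 CPM in TAL1-control, an increase of 1.99 (SE 0.14). CDKN2C, the inhibitor p18 of CDK4 and CDK6, had 68.5 and 60.9 CPM in TAL1-KD, against 195 and 205 CPM in TAL1-control, a log2 fold change of -1.63 (SE 0.09). CDKN1B did not pass the test (0.29). Of genes known as p53 targets 11 of 20 rose and 2 fell, with the death gene BBC3 at 1.23 (SE 0.08). Jurkat cells are known to lack functional p53. Higher p53 targets numbered 5 without TAL1-control replicate 1 and 7 without TAL1-control replicate 2, and lower ones 7 without TAL1-KD replicate 1. In the BCL2 family the survival gene BCL2 fell (-0.70, SE 0.10) and the death genes BAK1 and BIK rose by 0.88 and 0.88, with BCL2L1 (0.03) and BCL2L11 (-0.22) not passing the test.

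Promoters of late cell cycle genes often hold a CCAAT box and, nearer the start, the cell cycle homology region TTTGAA. In the 250-base windows, on both strands, TTTGAA was found in 6 of 13 promoters of mitotic kinase and cyclin genes, 11 of 20 of kinesin and spindle genes and 6 of 21 of centromere genes, against 13.6% of all promoters. CCAAT was found in 9 of 13, 16 of 20 and 14 of 21, against 33.0% of all promoters. It was not particular to lists that fell. Among lists that rose, 15 of 19 cholesterol and 10 of 14 antigen presentation promoters held CCAAT. In other lists that rose, 8 of 32 complex I and 15 of 38 large ribosomal subunit promoters held it. Stretches from these windows are printed for 4 genes that fell, with both patterns in capitals: PLK1 at chr16:23678779-23678888 (forward strand), CCNB1 at chr5:69167040-69167149 (forward), HMMR at chr5:163460522-163460631 (forward) and CENPA, the histone of the centromere, at chr2:26785906-26786055 (forward).
PLK1: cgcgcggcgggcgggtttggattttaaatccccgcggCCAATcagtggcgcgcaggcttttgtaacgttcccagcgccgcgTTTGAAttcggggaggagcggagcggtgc
CCNB1: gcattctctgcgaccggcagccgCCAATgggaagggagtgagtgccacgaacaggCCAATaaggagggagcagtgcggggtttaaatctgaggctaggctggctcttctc
HMMR: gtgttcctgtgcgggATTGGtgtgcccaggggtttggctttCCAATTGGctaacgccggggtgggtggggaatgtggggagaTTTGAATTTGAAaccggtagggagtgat
CENPA: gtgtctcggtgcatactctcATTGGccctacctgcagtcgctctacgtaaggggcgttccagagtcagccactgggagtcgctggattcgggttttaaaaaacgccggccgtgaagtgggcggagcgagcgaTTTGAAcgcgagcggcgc
The log2 fold changes of these genes were -0.99, -1.22, -2.43 and -1.34. HMMR holds TTTGAA 2 times in direct succession, and CCNB1 has none in this window and 2 CCAAT boxes.

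**Figure D3:**
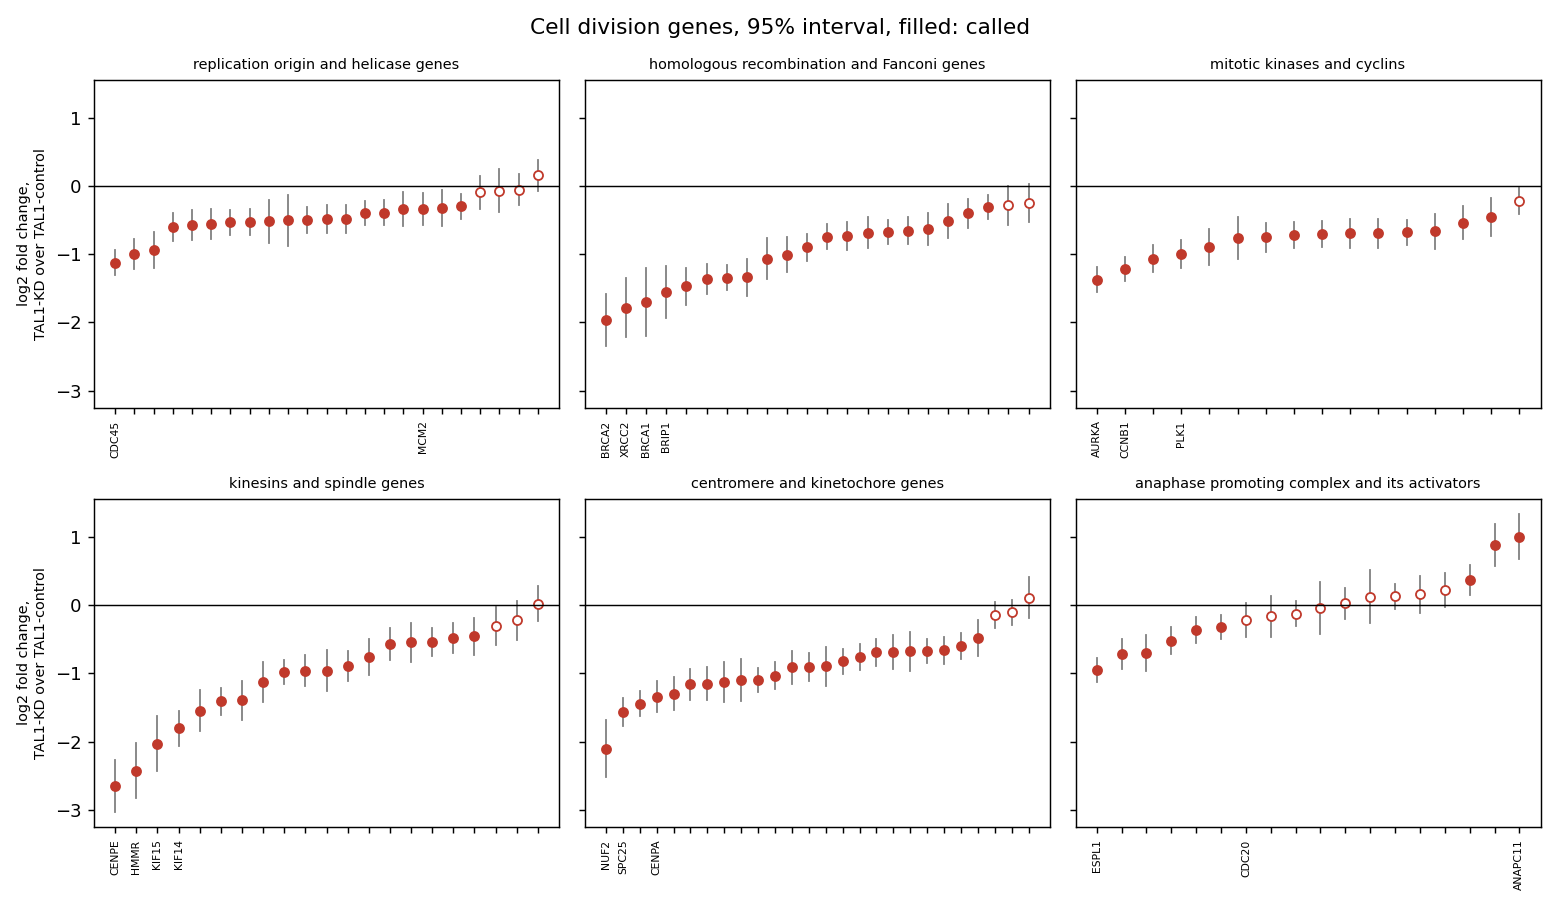
Log2 fold change of TAL1-KD over TAL1-control with its 95% interval (edgeR, n = 2 per group) for genes of 6 cell division lists, each dot a gene, ordered by size within a list, with filled dots for genes called by the test and names for genes given in the text. Falls reach -2.65 in CENPE and most intervals lie below 0, and genes of the anaphase promoting complex lie on both sides of 0.

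Respiratory chain subunits encoded in the nucleus rose. Of complex I subunits 27 of 38 rose and 2 fell, of complexes III and IV 21 of 25 rose and none fell, and of ATP synthase 12 of 18 rose and 1 fell. The lower genes of complex I numbered 1 without TAL1-control replicate 1 and 1 without TAL1-control replicate 2, and those of ATP synthase 2 without TAL1-KD replicate 1 and 2 without TAL1-KD replicate 2. NDUFA2, a small complex I subunit, had 51.8 and 66.2 CPM in TAL1-KD, against 23.1 and 25.0 CPM in TAL1-control (log2 fold change 1.29, SE 0.13). COX7A2, a small complex IV subunit, rose by 1.17 (SE 0.13) and ATP5ME, of the membrane part of ATP synthase, by 1.33 (SE 0.17). NDUFS1, the largest subunit of complex I, fell (-0.44), and ATP5F1A, the alpha subunit gene of ATP synthase, did not pass the test (0.00). The call was lost for NDUFS1 without TAL1-control replicate 1. Mitochondrial ribosomal genes rose in 28 of 47 cases for the large subunit and 14 of 29 for the small one. The count for the small subunit was 6 without TAL1-control replicate 1. The mitochondrial helicase gene TWNK and the polymerase gene POLRMT rose by 1.06 and 0.79.

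Cytosolic ribosomal genes rose, 35 of 46 large and 24 of 31 small subunit genes, with medians of 0.59 and 0.47 and none lower. The counts were 15 without TAL1-control replicate 1 for the large subunit and 5 without TAL1-control replicate 1 and 11 without TAL1-control replicate 2 for the small one, and many of these genes have pseudogenes that can share reads. Ribosome biogenesis genes rose in 18 of 32 cases, with NOP2 at 0.98, while NCL (-0.11) did not pass the test. That count was 11 without TAL1-control replicate 1. Splicing factors moved both ways, with 17 of 35 higher and 8 lower. The core particle gene SNRPD2 rose by 0.83, and the regulators SRSF10 and SRSF3 fell (-1.31 and -1.14). Higher splicing genes numbered 11 without TAL1-control replicate 1.

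Genes of T-cell development moved in both directions. Of thymocyte surface markers 9 of 16 fell and 2 rose, with a median of -0.55. The higher markers numbered 0 without TAL1-control replicate 1 and 1 without TAL1-control replicate 2. CD4 had 535 and 666 reads in TAL1-KD, against 1698 and 1859 reads in TAL1-control. CD34, a marker of the earliest progenitors, had 0.269 and 0.147 CPM in TAL1-KD, against 0.517 and 0.845 CPM in TAL1-control. IL7R, the interleukin receptor of early thymocytes, had 9.92 and 7.30 CPM in TAL1-KD, against 20.6 and 20.2 CPM in TAL1-control. The log2 fold changes were -1.32 (SE 0.14), -1.70 (SE 0.40) and -1.24 (SE 0.15). The recombinase genes RAG1 and RAG2 fell (-0.73 and -2.39), and so did DCLRE1C (-1.30), which opens the hairpins they make. E protein targets moved both ways, with 7 of 18 higher and 9 lower. PTCRA, the pre-receptor chain, fell (-0.68), and the chemokine receptor gene CCR9 had 94.3 and 79.5 CPM in TAL1-KD, against 18.5 and 17.2 CPM in TAL1-control, an increase of 2.28 (SE 0.11).

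Of T-lineage transcription factors 7 of 23 rose and 9 fell (30.4% and 39.1%), beside 26.3% and 27.9% over all genes tested. SOX4, among the genes with the largest gains in CPM, had 1856 and 2139.6 CPM in TAL1-KD, against 613 and 642 CPM in TAL1-control, an increase of 1.67 (SE 0.12), and ZBTB7B, which commits thymocytes to the CD4 lineage, rose by 1.22 (SE 0.28). TOX2, a factor of activated T cells, fell (-1.32), and BCL11B (0.20) and LEF1 (0.07) did not pass the test. The count of lower factors was 4 without TAL1-control replicate 1 and 3 without TAL1-control replicate 2. No call was made for ZBTB7B without TAL1-control replicate 1. Of T-cell receptor signalling genes 9 of 35 rose and 10 fell, shares close to the 26.3% and 27.9% over all genes tested, with ZAP70 at 0.64 and SYK, its relative of early T cells, at -1.48. Higher signalling genes numbered 14 without TAL1-KD replicate 1, 14 without TAL1-KD replicate 2 and 4 without TAL1-control replicate 2, and lower ones 6 without TAL1-control replicate 1 and 6 with the trend in transcript length and GC content removed. The receptor chain gene CD3D rose by 0.93. Of 9 tested markers of NK and cytotoxic T cells 5 fell and 1 rose, the higher count being 0 with upper quartile scaling, 0 without TAL1-control replicate 1, 0 without TAL1-control replicate 2 and 0 with the trend in transcript length and GC content removed. PRF1, the pore-forming perforin, had 0.706 and 0.49 CPM in TAL1-KD, against 4.56 and 3.96 CPM in TAL1-control, a log2 fold change of -2.83 (SE 0.22), and the granzyme gene GZMA fell (-1.56). NOTCH1 (-0.16) and its target DTX1 (-0.12) did not pass the test and HES1 fell (-0.64).

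Among homing genes, the egress receptor gene S1PR1 rose by 1.17 (SE 0.12), while the integrin gene ITGA6 fell (-1.17). Lymphocyte GTPases of the GIMAP family fell in 5 of 7 cases, with GIMAP8 at -1.57 and GIMAP1 at -1.04. That count was 3 without TAL1-control replicate 2. The test was not passed for GIMAP8 in DESeq2's Wald test and without TAL1-control replicate 2.

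KDM6B, a demethylase of the Polycomb mark on histone H3, rose by 0.93 (SE 0.08), with 318 and 309 CPM in TAL1-KD, against 164 and 165 CPM in TAL1-control, and its relative KDM6A did not pass the test (0.19). EZH2, the methyltransferase of dividing cells that writes this mark, had 176 and 171 CPM in TAL1-KD, against 308 and 302 CPM in TAL1-control, a log2 fold change of -0.81 (SE 0.08), and EZH1, its relative of resting cells, rose by 0.65 (SE 0.10). The cofactor gene PHF1 rose by 0.95 and PHF19 fell (-0.83). Of 26 Polycomb genes 6 rose and 8 fell, shares close to the 26.3% and 27.9% over all genes tested. Higher Polycomb genes numbered 11 without TAL1-KD replicate 1 and 11 with the trend in transcript length and GC content removed, and lower ones 5 with the trend in transcript length and GC content removed. HOXA13, a posterior HOX gene, had 0.185 and 0.294 CPM in TAL1-KD, against 2.04 and 1.85 CPM in TAL1-control, a log2 fold change of -3.01 (SE 0.27). MYC rose by 0.30 (SE 0.08), and its antagonist genes MXD1 and MXI1 rose by 1.00 and 0.85. The call was lost for MYC without TAL1-control replicate 1 and without TAL1-control replicate 2.

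Outside these groups, large changes among genes with a mean of at least 2 CPM were in genes of varied function. CHRNA6, a nicotinic acetylcholine receptor subunit, had 5.08 and 3.84 CPM in TAL1-KD, against 0.411 and 0.364 CPM in TAL1-control, an increase of 3.51 (SE 0.24). ARRDC3, an alpha-arrestin of receptor traffic, had 24.6 and 21.3 CPM in TAL1-KD, against 2.90 and 3.85 CPM in TAL1-control (log2 fold change 2.77, SE 0.16). RND1, a GTPase that loosens the actin skeleton, rose by 2.43 (SE 0.15) and KREMEN2, a Wnt co-receptor antagonist, by 2.43 (SE 0.17). TKTL1, a transketolase-like enzyme, had 0.942 and 0.898 CPM in TAL1-KD, against 10.0 and 10.1 CPM in TAL1-control, a log2 fold change of -3.45 (SE 0.15). ARHGEF39, a guanine nucleotide exchange factor, fell (-3.14, SE 0.17), as did FAR2 (-2.87), a fatty alcohol enzyme, and GLIPR1 (-2.78). These genes were chosen in part because both TAL1-KD libraries lay on one side of both TAL1-control libraries. That held for 81.0% of all genes tested. ACTB and ACTG1, the cytoplasmic actins often used as constant genes, fell (-0.68 and -0.51), and GAPDH rose by 0.58 (SE 0.16). No call was made for ACTB without TAL1-control replicate 2, for ACTG1 without TAL1-control replicate 1 and without TAL1-control replicate 2 and for GAPDH without TAL1-control replicate 1 and without TAL1-control replicate 2.

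Gene classes differed too. Of 1009 antisense genes tested 98 rose and 350 fell, with a median of -0.35, and of 791 lincRNA genes 78 rose and 268 fell, with a median of -0.42. Of 692 processed pseudogenes 176 rose and 65 fell, with a median of 0.26, and of 12901 protein-coding genes 3845 rose and 3641 fell. MIAT, a long non-coding RNA, had 148 and 131 CPM in TAL1-KD, against 37.4 and 32.6 CPM in TAL1-control, an increase of 2.00 (SE 0.10). MIR210HG, the host of a hypoxia microRNA, had 1.13 and 1.58 CPM in TAL1-KD, against 7.41 and 9.47 CPM in TAL1-control, a log2 fold change of -2.63 (SE 0.21). MTRNR2L12, a humanin-like gene copied from mitochondrial ribosomal RNA, rose, with 1801 and 1845 CPM in TAL1-KD, against 345 and 365 CPM in TAL1-control (log2 fold change 2.36, SE 0.11). MTCO1P12, a nuclear copy of a mitochondrial protein gene, fell, with 3096 and 3255 CPM in TAL1-KD, against 8152 and 7805 CPM in TAL1-control (log2 fold change -1.33, SE 0.14). Both are close to identical to mitochondrial DNA, so reads of mitochondrial RNA may be counted there. The libraries were stranded, but the strand setting of the counting is not given in the sources used here, so antisense and sense reads cannot be told apart with certainty.

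The fold changes moved with transcript properties. Genes were split into 10 bins of equal size by each property. In the bin of lowest GC content, 27.85% to 38.91%, the median log2 fold change was -0.28 and 41.9% of genes fell, and in the bin of highest GC content it was 0.15 and 19.5% fell. By length the median was 0.14 in the bin of transcripts up to 883 bases and -0.12 in that from 6950 bases. In the bin of lowest GC content the median of log2(CPM + 0.5) over the mean of the TAL1-control libraries was -0.16 in TAL1-KD replicate 1 and -0.31 in TAL1-KD replicate 2. With the trend removed the median of all genes shifted from -0.02 to 0.08, and CENPE stood at -2.21, IFT88 at -1.80 and NDUFA2 at 1.23.

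**Figure D4:**
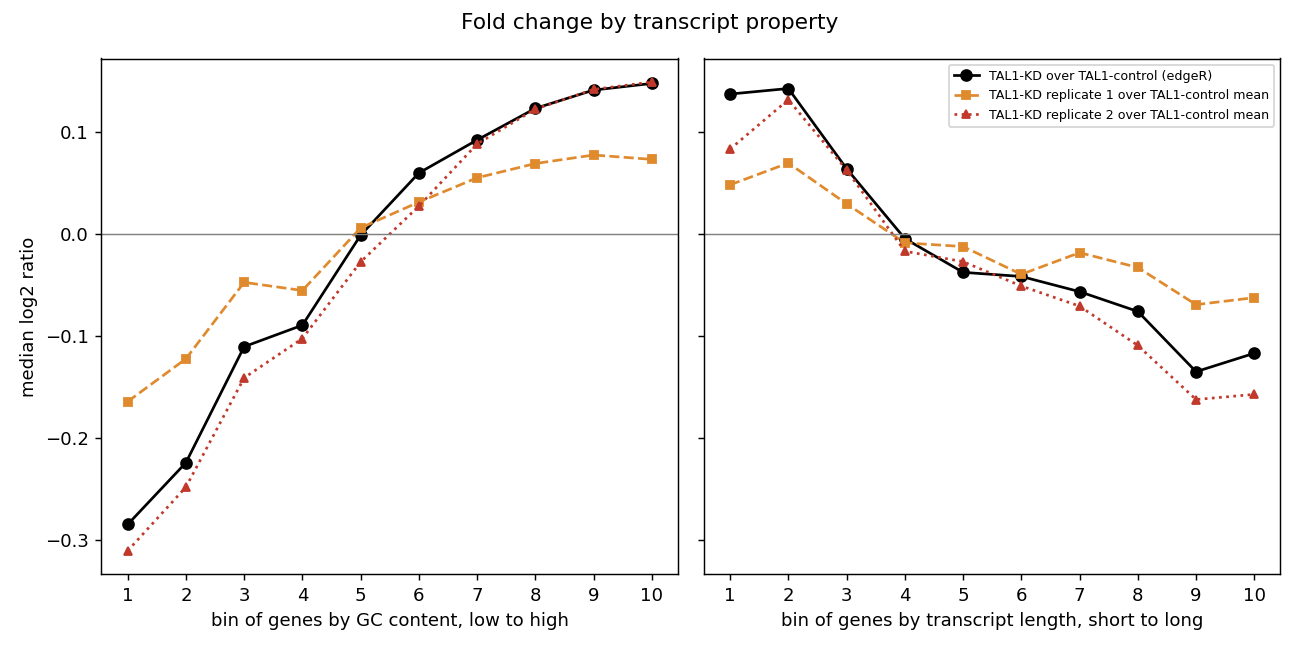
Median log2 fold change of TAL1-KD over TAL1-control in 10 bins of tested genes by GC content (left) and by transcript length (right), and the median of each TAL1-KD library over the mean of the TAL1-control libraries on the log2(CPM + 0.5) scale. The line over the groups runs from -0.28 to 0.15 with GC content and from 0.14 to -0.12 with length, and TAL1-KD replicate 2 lies further from 0 than TAL1-KD replicate 1 at both ends of GC content.

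The UTX-labelled comparison received the same doxycycline dose and time and has its own controls, so the difference between both changes was tested over 8 libraries. Of 17611 genes, 25.0% had a higher and 25.1% a lower change in the TAL1-labelled comparison (50.1% in all), at an adjusted p under 0.05 in edgeR's interaction test. With the trend in transcript length and GC content removed these were 5736 and 3582 genes, against 4405 and 4420 without, and with upper quartile scaling 3126 and 5830. Heat shock chaperones differed in all 19 of 19 cases, with 17 higher in TAL1-KD and, in UTX-KD, 1 higher and 14 lower (shares over all genes of 25.2% higher and 25.3% lower in UTX-KD). Cholesterol genes differed in 21 of 23 cases, with a median of 0.88 in the TAL1-labelled comparison and -0.60 in the UTX-labelled one. Proteasome genes differed in 30 of 36 cases, and 32 of 36 tested fell in UTX-KD. Homologous recombination genes fell in both, 20 in TAL1-KD and 19 in UTX-KD, and the fall was larger in TAL1-KD in 18 of 22 cases. Other lists also moved alike. In UTX-KD 16 of 16 mitotic kinase and cyclin genes and 21 of 21 kinesin and spindle genes fell. Of antigen presentation genes 13 of 16 rose and 1 fell there, and of lysosome and autophagy genes 20 of 28 rose and 3 fell. In UTX-KD 11 of 17 NF-kB cytokine and adhesion targets rose and 1 fell, and 6 of 12 NF-kB inhibitors rose with 0 lower. AP-1 genes rose in 7 of 12 cases there and fell in 3. Ribosomal genes rose in 34 of 46 large and 18 of 31 small subunit cases, and 1 large subunit gene fell. Of p53 targets 13 of 20 rose and 1 fell. The change was higher in TAL1-KD for 8 of 12 inhibitors, 8 of 12 AP-1 genes and 31 of 46 large subunit genes. RELB (1.90), DUSP8 (2.31), CHRNA6 (1.72) and ARRDC3 (1.23) rose in UTX-KD too. Amino acid stress genes of the ATF4 response, 22 of 23 higher in UTX-KD, were split in TAL1-KD with 7 higher and 11 lower, and 19 of 23 had a lower change there. In TAL1-KD the count of higher ATF4 genes was 4 without TAL1-control replicate 1 and 4 without TAL1-control replicate 2, and that of lower genes 7 without TAL1-control replicate 1.

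Some genes were called in opposite directions in the 2 comparisons. BHLHE40, a stress-responsive repressor, had 51.4 and 70.1 CPM in TAL1-KD, against 14.0 and 21.2 CPM in TAL1-control. In the UTX-labelled libraries it had 12.3 and 13.3 CPM in UTX-KD, against 39.2 and 45.6 CPM in UTX-control. The log2 fold changes were 1.79 and -1.72, and their difference was 3.55 (SE 0.27, edgeR adjusted p = 3.24e-05). GDAP1L1, a relative of a mitochondrial fission gene, had 0.488 and 0.506 CPM in TAL1-KD, against 3.79 and 3.35 CPM in TAL1-control. In the UTX-labelled libraries it had 0.493 and 0.688 CPM in UTX-KD, against 0.0625 and 0.0349 CPM in UTX-control. The UTX-control values stand for 5 and 2 reads. The changes were -2.84 and 3.48, a difference of -6.29 (SE 0.42, edgeR adjusted p = 1.76e-05). DHCR7 rose in TAL1-KD (1.79) and fell in UTX-KD (-0.50), with a difference of 2.32 (SE 0.25). Of the genes tested in both comparisons, 1653 were higher and 1579 lower in both, 997 were higher in TAL1-KD and lower in UTX-KD, and 815 were lower in TAL1-KD and higher in UTX-KD.

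**Figure D5:**
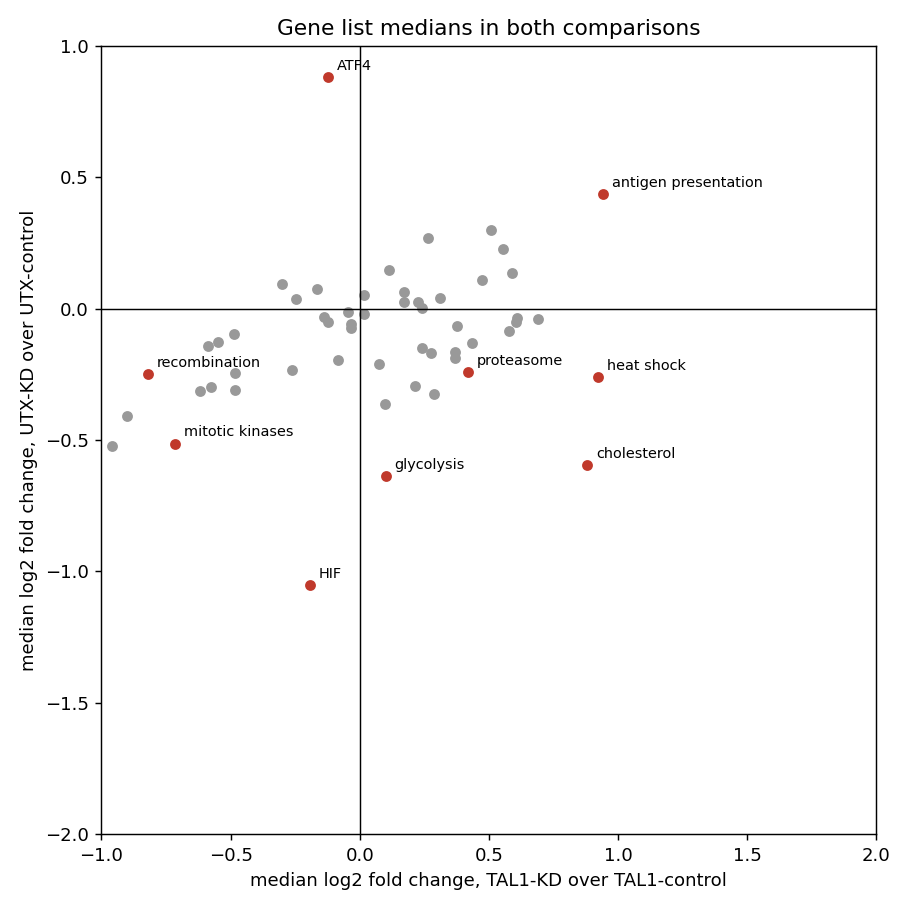
Median log2 fold change of the 55 gene lists with at least 15 tested genes in the TAL1-labelled comparison (horizontal axis) and in the UTX-labelled comparison (vertical axis), each dot a list, with lines at 0. Cholesterol, heat shock and proteasome lists lie right of 0 and below 0, and the recombination and mitotic lists lie left of 0 and below 0.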

How the data were processed

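RNA of Jurkat cells was sequenced from a stranded mRNA library kit, per the labels' protocols. The authors deposited raw counts of reads per gene, and the submitters' processing notes name TopHat2 2.0.12, HTSeq 0.6.1p1, DESeq2 and the build hg19, with the counting's strand setting not given in the sources used here. The deposited fold changes and p-values were not used.

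The counts of the 4 libraries were fitted alone with edgeR 4.0.16 in R 4.3.3 (filterByExpr, TMM scaling, quasi-likelihood test, Benjamini-Hochberg adjustment over 16829 genes, threshold 0.05). The UTX-labelled comparison was fitted alike, and the difference between both over 8 libraries with an interaction term. Gene types came from GENCODE 29, which also gave symbols where a reference list of gene names had none. Promoter sequences came from RefSeq (GRCh38.p14). The fits were tested on simulated data. Total counts of 60085969 to 70996736 per library limit the precision of low genes.

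The gene lists and members were chosen with earlier results of these data known. Named genes are the targeted gene, preset anchors of each list, up to 4 other called members per list, the 12 protein-coding and 6 other genes with the largest change in each direction (called, a mean of at least 2 CPM, groups that do not overlap), the 6 largest gains and losses in CPM, and 5 genes per direction called in opposite directions there that differ most from the UTX-labelled comparison. Some genes that this rule names are not reported here. PMVK, MCOLN1, NLRC5 and TAPBP were chosen after their values were seen. Alternatives were other filters, scalings, thresholds, DESeq2 1.42.0, the replicate block, each replicate left out, and removal of the trend in length and GC content with splines.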

Additional observations from a re-analysis of the deposited data

Results flagged for a closer look

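Of the genes called in opposite directions in the TAL1-labelled and UTX-labelled comparisons, those with the largest difference in each direction were taken, 5 per direction, by edgeR's interaction test with Benjamini-Hochberg adjustment. On the log2 scale the change was higher in the TAL1-labelled comparison for BHLHE40 by 3.55 (SE 0.27), TRIB1 by 2.39 (SE 0.37), DHCR7 by 2.32 (SE 0.25), RPS27P13 by 2.18 (SE 0.50) and KCNE5 by 2.15 (SE 0.45). The change was lower there, with negative differences, for GDAP1L1 by -6.29 (SE 0.42), LINC02806 by -4.24 (SE 0.58) and IL31RA by -4.17 (SE 0.66). These differences rest on few reads. GDAP1L1 had 7 reads in all in UTX-control, and LINC02806 had 12 in TAL1-KD and 10 in UTX-control. IL31RA had 6 in TAL1-KD and 15 in UTX-control. Among genes with a higher change, RPS27P13 had 23 reads in all in UTX-KD and KCNE5 25 in TAL1-control. PCDH12 and FGF21 were among those with a lower change, but PCDH12 had 1 read in all in TAL1-KD and FGF21 1 read in all in UTX-control, too few for a fold change. All were picked for the size of this difference, so the values describe these libraries. LINC02806 and RPS27P13 are non-coding.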

How the results depend on the processing

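With 2 libraries per group, genes of few reads and small changes are the least certain. The counts of 4424 higher and 4696 lower genes ran from 2431 to 5869 and from 3094 to 6083 when 1 replicate was left out. They were 2872 and 3046 at an adjusted p threshold of 0.01, and 700 and 1761 with an absolute log2 fold change of at least 1. The share of higher calls was 48.5%, against 58.4% with the trend in length and GC content removed and 40.9% with upper quartile scaling, and the cause was not tested. For the difference from the UTX-labelled comparison, the 4405 higher and 4420 lower genes ran from 3256 to 5554 and from 3249 to 5767 when 1 replicate was left out. They were 712 and 1771 with an absolute log2 fold change of at least 1, and 2786 lower at the 0.01 threshold. DESeq2's Wald test was not run for that difference.

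TAL1 itself ran from -0.136 to 0.00375 when 1 replicate was left out. It was 0.0109 with the trend removed and 0.00859 with the replicate block and the trend removed, in place of -0.07. With the replicate block 4631 genes were higher and 5130 lower, and 4279 and 4352 differed from the UTX-labelled comparison. In same-numbered replicates the deviations from group means correlated at 0.192 across genes, and 2 pairs were too few to show that the numbers pair the samples.

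Of the named genes, those that changed direction were not called with all libraries. With the trend removed the log2 fold changes were 0.205 for ATP5F1A, 0.109 for ATR, 0.174 for MYB and 0.0625 for NCL, and with the replicate block as well 0.203, 0.107, 0.170 and 0.0601. With upper quartile scaling they were -0.0498 for BCL2L1, -0.0104 for LEF1 and -0.0642 for TCF12. With a filter of at least 1 CPM in 2 libraries they were -0.000595 for BCL2L1 and -0.0153 for TCF12. ATP5F1A was 0.0225 with DESeq2's size factors and 0.0225 in DESeq2's Wald test. When 1 replicate was left out ATP5F1A ran from -0.0397 to 0.0494, BCL2L1 from -0.00934 to 0.0785, DTX1 from -0.374 to 0.119 and MYB from -0.0756 to 0.0227.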
